A study of Homo sapiens with 16 samples.

Results

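The vascular endothelial growth factor (VEGF) system was followed through 8 genes, the ligands VEGFA, VEGFB, VEGFC and PGF, the receptors FLT1 (VEGFR1) and KDR (VEGFR2), and the co-receptors NRP1 and NRP2. They were picked out of the 63187 genes of the count table by gene symbol. The rule has no threshold on measured values, but the set was chosen with earlier results of these data known. The low-count filter left 19530 genes for testing, among them 7 of the 8. KDR did not pass it and is described by its counts alone.

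The 16 RNA-seq libraries came from SK-N-BE(2), an established line of human neuroblastoma cells that carries extra copies of MYCN, kept at 21% oxygen with 10% serum. The library names call the line BE2c, and they use WT for the libraries labelled FL and CTRL for those labelled WT. Groups here follow the sample labels. The groups held 4 libraries each: wild-type cells (WT) and cells given 1 of 3 forms of HIF-2α, the oxygen-regulated transcription factor made from EPAS1. The full-length form is named FL, and the series design spells the forms labelled NCTAD and cIDR as ΔN-CTAD and Δc-IDR. The labels give every library a batch from 1 to 4 that equals its replicate number, without saying what a batch shared, so each batch holds 1 library of each group. The labels do not say which residues ΔN-CTAD and Δc-IDR stand for, how or when the cells were transfected, or if the WT cells had a mock transfection, so transfection as such and the HIF-2α form cannot be told apart in a comparison with WT. The labels do not say whether the libraries of a group came from separate cultures, so p-values measure the spread between libraries.

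VEGF ligands are secreted dimers that stimulate the growth and permeability of blood vessels. VEGFA signals mainly through KDR, while FLT1 binds VEGFA, VEGFB and PGF tightly and signals weakly, and a soluble form of it traps ligand. VEGFC is the main growth factor of lymphatic vessels. The neuropilins NRP1 and NRP2 have no kinase domain, hold VEGF at the cell surface, and also serve as receptors for class 3 semaphorins, which steer growing axons. VEGFA is a textbook target of the hypoxia-inducible factors, which become stable when oxygen falls.

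In GENCODE 29 on GRCh38 the ligand genes lie at chr6:43770184-43786487 (VEGFA, ENSG00000112715.26, plus strand), chr11:64234538-64238793 (VEGFB, ENSG00000173511.10, plus), chr4:176683538-176792727 (VEGFC, ENSG00000150630.4, minus) and chr14:74941834-74955784 (PGF, ENSG00000119630.14, minus). The receptor genes lie at chr13:28300344-28495145 (FLT1, ENSG00000102755.13, minus) and chr4:55078259-55125595 (KDR, ENSG00000128052.10, minus). NRP1 (ENSG00000099250.18) lies at chr10:33177492-33336262 on the minus strand and NRP2 (ENSG00000118257.17) at chr2:205681990-205798133 on the plus strand. An antisense gene overlaps VEGFA, VEGFC, KDR, NRP1 and NRP2. The library kit marks strand, but whether the counting used it is not given in the sources used here, so reads of these 5 genes and of their antisense partners may not have been told apart. Values are sums over all transcripts of a gene, so membrane-bound and soluble FLT1 are counted together.

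Promoter windows of 250 bases before a RefSeq start (GRCh38.p14) were matched by symbol for 6 of the 8 genes, VEGFB, VEGFC, PGF, FLT1, KDR and NRP2, in 7 windows. The core letters bound by hypoxia-inducible factors, ACGTG and GCGTG, were searched on both strands, where matches on opposite strands can overlap, as ACGTG does with itself in CACGTG. A match stood in 4 of the 6 genes (VEGFB, VEGFC, FLT1 and 1 of the 2 PGF starts), and 43.2% of the 35116 promoters of the table hold at least 1. The windows of FLT1 and PGF are printed, each ending before the first GENCODE exon, FLT1 because its NCTAD libraries stood apart from those of FL and cIDR, and PGF because it was called between batches and not between groups. Capitals mark the single match in FLT1, GCGTG read on the other strand, 206 bases before the start. The PGF window, that of its most upstream start, holds no match. Both run 5′ to 3′ along the minus strand, over chr13:28495146-28495378 for FLT1 and chr14:74955785-74956014 for PGF.
FLT1: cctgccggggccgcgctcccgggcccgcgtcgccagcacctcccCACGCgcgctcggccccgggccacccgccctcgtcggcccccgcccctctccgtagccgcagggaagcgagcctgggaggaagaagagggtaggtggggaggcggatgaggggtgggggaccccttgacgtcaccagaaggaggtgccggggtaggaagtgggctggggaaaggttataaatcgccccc
PGF: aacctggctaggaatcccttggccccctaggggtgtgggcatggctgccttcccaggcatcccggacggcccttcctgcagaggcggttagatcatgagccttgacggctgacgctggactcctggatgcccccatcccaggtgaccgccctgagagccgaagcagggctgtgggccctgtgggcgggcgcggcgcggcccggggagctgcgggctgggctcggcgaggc

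Libraries held 38.6 to 56.1 M (mega) estimated counts. Levels are given as CPM, counts per 1 M counts after TMM scaling of the library size. A count of 0 allows up to 3 counts, which is 0.0528 to 0.0812 CPM depending on the library and covers counting error only. EPAS1, read as a check of the labels, was at 13.0 to 28.1 CPM in the WT libraries and at 1320.0 to 5852 CPM in the transfected ones. Markers of adrenergic neuroblastoma cells (10 genes such as HAND2 and DBH) summed to 6943 to 9017 CPM in every library. MYCN and CHGA held 2594 to 3411 and 1930 to 3640 CPM of it, while TH of the same list was at 0.856 to 10.2 CPM. Markers of mesenchymal neuroblastoma cells (8 genes) summed to 33.2 to 60.8 CPM. Of 11 endothelial markers, 9 stayed under 1 CPM in every library, with PECAM1 at 0 to 3 counts, TEK at 0 or 1 and CDH5 at 1 to 49. VWF, at 0.0965 to 1.51 CPM, and EGFL7 passed 1 CPM. The summed endothelial markers were at 15.9 to 38.9 CPM in batch 2 and 1.95 to 16.03 CPM elsewhere, of which EGFL7 alone accounted for 1.47 to 36.5 CPM. Myeloid markers summed to 1.14 to 2.22 CPM. In such bulk samples, fewer cells of a type and less RNA per cell cannot be told apart.

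Set side by side per transcript length, in transcripts per 1 M (TPM), VEGFA stood at the top of the 8 genes and the tyrosine kinase receptors FLT1 and KDR near the bottom. VEGFA had a mean of 131 TPM (52.6 to 293 over the 16 libraries), followed by VEGFB at 35.6 (30.5 to 44.3), NRP1 at 24.7 (10.8 to 38.4) and PGF at 17.9 (12.2 to 30.3). NRP2 had a mean of 2.46 TPM (1.38 to 4.21), FLT1 0.485 (0.158 to 0.841), VEGFC 0.136 (0 to 0.284) and KDR 0.00598 (0 to 0.0503). VEGFA exceeded VEGFB in 16 of 16 libraries. VEGFB exceeded NRP1 in 12 of 16, and NRP1 exceeded PGF in 12 of 16, so the order of these neighbours was not the same in every library. PGF exceeded NRP2, NRP2 exceeded FLT1 and FLT1 exceeded VEGFC in all 16, and VEGFC exceeded KDR in 15. Ranked by mean TPM among the tested genes, VEGFA stood at percentile 94.3, NRP1 at 73.1, FLT1 at 14.9 and VEGFC at 3.02.

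**Figure D1:**
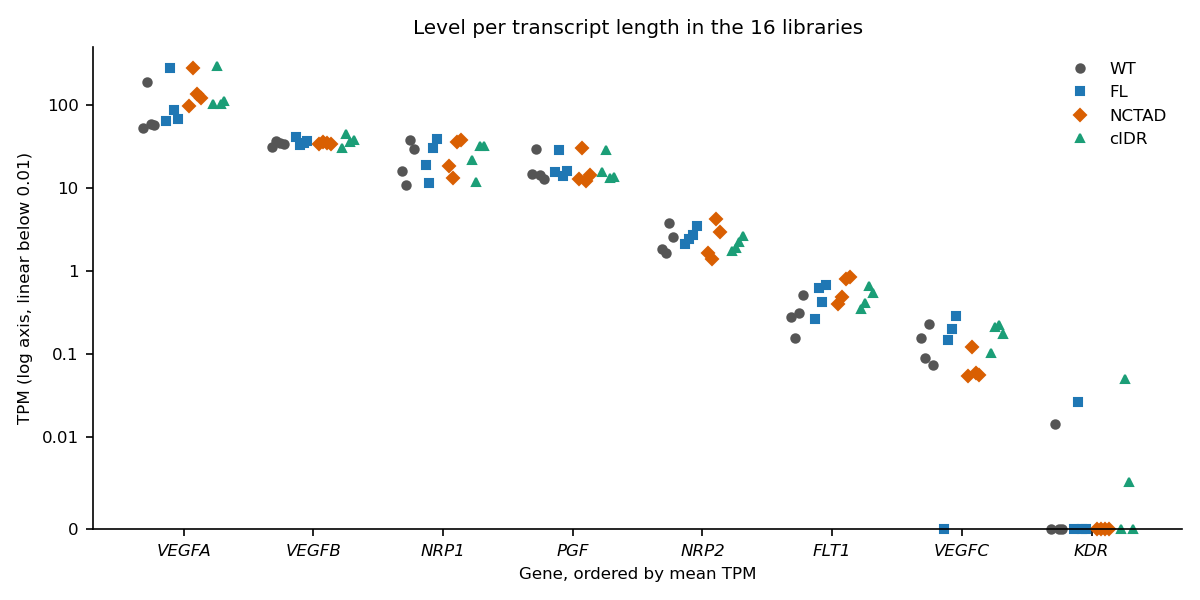
Level of the 8 genes in TPM (vertical axis, logarithmic above 0.01 and linear below), ordered by mean, with 1 point per library coloured by group (4 libraries in each of WT, FL, NCTAD and cIDR). VEGFA reaches 293 TPM, FLT1 stays between 0.158 and 0.841 TPM, and KDR lies at 0 in 12 of the 16 libraries.

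VEGFA, the principal ligand, was 1.59 to 2.37-fold higher in NCTAD and 1.64 to 2.19-fold higher in cIDR than in WT of the same batch, and was highest of all in batch 2. In batches 1 to 4 in turn, WT libraries held 93.1, 312, 109 and 104 CPM of VEGFA. FL libraries held 138, 479, 157 and 113 CPM. The NCTAD libraries were at 204, 495, 258 and 227 CPM and the cIDR libraries at 204, 513, 196 and 190 CPM. In every batch WT was lowest and FL next, and NCTAD and cIDR stood above FL. The ranges of the 4 groups overlapped once batches were pooled, and the WT library of batch 2 exceeded every transfected library of the other batches.

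Within batches, VEGFA in FL differed from WT by 0.56, 0.62, 0.53 and 0.12 on the log2 CPM scale, a mean of 0.46 ± 0.23 (SD, n = 4 batches). For NCTAD the differences were 1.13, 0.66, 1.24 and 1.12, a mean of 1.04 ± 0.26. For cIDR they were 1.13, 0.72, 0.85 and 0.87, a mean of 0.89 ± 0.17. All 12 were positive, and the smallest was FL in batch 4.

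Groups were tested with edgeR's quasi-likelihood test over all tested genes, once with group as the only term and once with the batch added as a block, which compares libraries of the same batch. With group alone 0 of the 7 tested genes was called in FL, NCTAD or cIDR against WT at an adjusted p under 0.05. Of all tested genes 0.0102%, 0.0256% and 0.0102% were called in these 3 comparisons, and 222, 277 and 268 had an unadjusted p under 0.05. VEGFA then had log2 fold changes of 0.52 ± 0.51 (SE), 0.94 ± 0.51 and 0.83 ± 0.51, with an edgeR adjusted p of 1 for FL and NCTAD and 1.00 for cIDR. Without the FL library of batch 2 the FL estimate was −0.18. With 1 library of the groups compared left out, the NCTAD estimate ranged from 0.57 to 1.54 and the cIDR estimate from 0.35 to 1.435. With the block the estimates had an SE of 0.11. VEGFA was then called in NCTAD at 1.05 ± 0.11 (2.07-fold, edgeR adjusted p 0.00035) and in cIDR at 0.89 ± 0.11 (1.85-fold, adjusted p 0.00106). It was not called in FL at 0.47 ± 0.11 (1.38-fold, edgeR adjusted p 0.267). The block called 1 of the 7 genes in NCTAD and in cIDR and 0 in FL, where 0.456%, 0.486% and 0.102% of all tested genes were called.

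**Figure D2:**
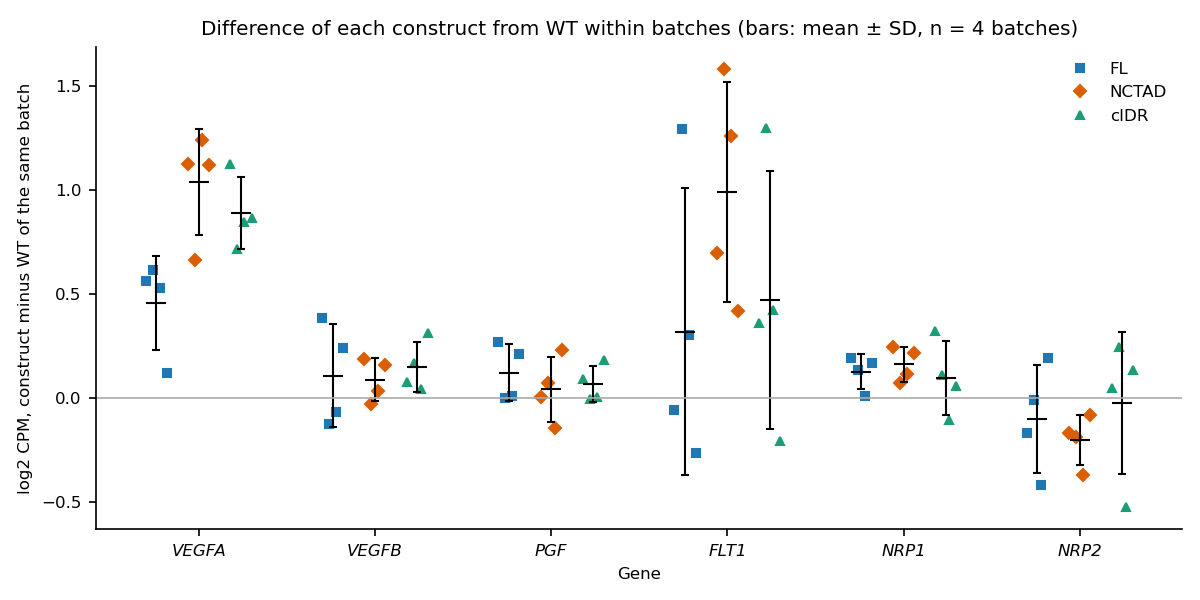
Difference in log2 CPM between each construct and the WT library of the same batch (vertical axis) for 6 of the 8 genes, with 1 point per batch and bars for mean ± SD over 4 batches; VEGFC and KDR, at 0 to 20 and 0 to 11 counts per library, are left out. VEGFA lies above 0 in all 12 pairs, with means of 0.46, 1.04 and 0.89, and FLT1 in NCTAD is the only other set with a mean near 1, at 0.99.

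Between the constructs VEGFA ordered the same way in every batch relative to FL, but the differences did not pass the test. NCTAD exceeded FL by 0.56, 0.047, 0.72 and 1.00 on the log2 scale in batches 1 to 4. The cIDR libraries exceeded FL by 0.56, 0.098, 0.32 and 0.75. In both comparisons the smallest difference was that of batch 2. EPAS1 itself was at 1691, 2001, 3580 and 3164 CPM in FL and at 4078, 2189, 5852 and 5816 CPM in cIDR in batches 1 to 4, higher in cIDR in each batch, and at 2203, 1320.0, 4228 and 3655 CPM in NCTAD, higher than FL in batches 1, 3 and 4. With the block EPAS1 was not called between them, at 0.78 ± 0.30 for cIDR against FL (edgeR adjusted p 1) and 0.095 ± 0.297 for NCTAD against FL (adjusted p 0.998). These EPAS1 counts do not separate the cells' own gene from the introduced form, and CPM is not scaled for the length of a form. The part of the EPAS1 level in the VEGFA differences was not tested. With the block the edgeR estimates were 0.58 ± 0.11 for NCTAD against FL (adjusted p 0.489) and 0.42 ± 0.11 for cIDR against FL (adjusted p 0.715). Without batch 2, NCTAD against FL was 0.77 with an edgeR adjusted p of 0.0451, and without the NCTAD library of batch 2 alone it was 0.70 with 0.0463. It was not called when any of the other 7 libraries of the 2 groups was left out, with estimates down to 0.47 and edgeR adjusted p up to 1. NCTAD and cIDR were not ordered: cIDR was the higher in 2 batches and the lower in 2, with an edgeR difference of −0.16 ± 0.11 (adjusted p 1.0).

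None of the 7 tested genes was called between constructs by either fit. NCTAD against FL called 0% of all tested genes with group alone (173 had an unadjusted p under 0.05) and 0% with the block (721). For cIDR against FL the shares were 0% (177 at an unadjusted p under 0.05) and 0.0307%, and for cIDR against NCTAD 0% (119) and 0.00512%. A test for any difference among the 4 groups called 1 of the 7, VEGFA, with the block (edgeR adjusted p 0.00117, 0.425% of all tested genes called) and 0 with group alone (0.0102%).

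FLT1, the high-affinity receptor that binds VEGFA, VEGFB and PGF, was the 1 of the 7 tested genes with the largest share of its variance between groups. WT libraries held 1.31, 0.726, 1.47 and 2.37 CPM of FLT1 in batches 1 to 4, at 39 to 108 counts. FL libraries held 1.26, 1.84, 1.83 and 1.97 CPM. The NCTAD libraries were at 2.16, 2.26, 3.58 and 3.18 CPM and the cIDR libraries at 1.71, 1.85, 1.99 and 2.06 CPM. NCTAD was highest in 4 of 4 batches, and its lowest library lay above the highest of FL and of cIDR but below the WT library of batch 4. The share of all tested genes whose libraries separate in this way was not counted, so the separation is only described.

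Relative to WT of the same batch, FLT1 in NCTAD was higher by 0.70, 1.58, 1.26 and 0.42 on the log2 scale (mean 0.99 ± 0.53, SD, n = 4 batches). Neither fit called it. The edgeR estimate was 0.93 ± 0.29 with group alone (adjusted p 1) and 0.96 ± 0.22 with the block (1.95-fold, adjusted p 0.0976). Over the alternatives to the group-only fit the estimate ranged from 0.31 to 1.26. Without the WT library of batch 4, the WT library with the highest FLT1, the blocked estimate was 1.19 with an edgeR adjusted p of 0.0448. It was not called when any of the other 7 libraries of the 2 groups was left out, with estimates down to 0.73 and edgeR adjusted p up to 0.395. FL and cIDR differed from WT in opposite directions in different batches, from −0.26 to 1.29 and from −0.20 to 1.30, and the largest value of each was that of batch 2, where WT was at its lowest. Against FL, FLT1 in NCTAD was higher by 0.68 ± 0.22 with the block (edgeR adjusted p 0.996), and in cIDR against NCTAD it was at −0.53 ± 0.22 (adjusted p 1.0).

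KDR, the main signalling receptor of endothelial cells, was close to absent. Its 16 libraries held 18 counts in all, and 12 libraries held 0. The FL library of batch 2 held 5 counts and the cIDR library of batch 2 held 11, the WT library of that batch and the cIDR library of batch 3 held 1 each. So 17 of the 18 counts fell in batch 2. The 11 counts of the cIDR library are 0.194 CPM, and the 5 counts of the FL library 0.0979 CPM. KDR was left out of the tests by the low-count filter, and no group comparison of it is given. The summed endothelial markers given above had ranges in batch 2 and elsewhere that just overlapped, with CDH5 at 1 to 49 counts over the libraries, and their part in the KDR counts was not tested.

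Among the other ligands and the co-receptors no group difference was called by either fit. VEGFB, which binds FLT1, had 24.8 ± 1.85 CPM among WT libraries, 26.9 ± 3.25 with FL, 26.3 ± 0.91 with NCTAD and 27.6 ± 2.01 with cIDR (SD, n = 4). PGF, placental growth factor, was at 19.4 ± 8.32, 20.9 ± 7.53, 20.1 ± 9.02 and 20.2 ± 7.77 CPM in the same order. With the block, its differences from WT were 0.12 ± 0.07, 0.045 ± 0.067 and 0.067 ± 0.067, with edgeR adjusted p of 0.920, 1.00 and 0.999. NRP1 was at 63.5 ± 29.4, 68.9 ± 30.3, 71.6 ± 33.2 and 66.5 ± 26.3 CPM. NRP1 stood above WT in 4 of 4 batches in FL and in NCTAD by 0.13 ± 0.06 and 0.16 ± 0.06 with the block (edgeR adjusted p 0.920 and 0.616). NRP2 was at 8.78 ± 3.10, 8.11 ± 2.42, 7.55 ± 2.22 and 8.38 ± 1.54 CPM, and was lower in NCTAD than in WT in 4 of 4 batches, at −0.21 ± 0.11 with the block (edgeR adjusted p 0.900). Differences of 1 sign in 4 of 4 batches were also those of VEGFB in cIDR against WT (higher) and PGF in FL against WT (higher). PGF in cIDR against FL (lower) and VEGFC in cIDR against NCTAD (higher) had them too. None of them was called. In batches 2 and 3 those of PGF were near 0, at 0.00036 and 0.012 for FL against WT and −0.0030 and −0.0059 for cIDR against FL. The share of all tested genes with 1 sign in 4 of 4 batches was not counted.

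VEGFC, the lymphatic ligand, was at 0 to 20 counts per library, and its estimates carry that error. WT libraries held 11, 7, 14 and 5 counts, FL 0, 11, 14 and 20, NCTAD 4, 9, 5 and 4, and cIDR 6, 18, 17 and 12. It was higher in cIDR than in NCTAD in 4 of 4 batches, with a log2 fold change of 1.25 ± 0.63 with the block (edgeR adjusted p 1.0). Its 6 differences between groups had an SE of 0.585 to 0.655 with the block.

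**Figure D3:**
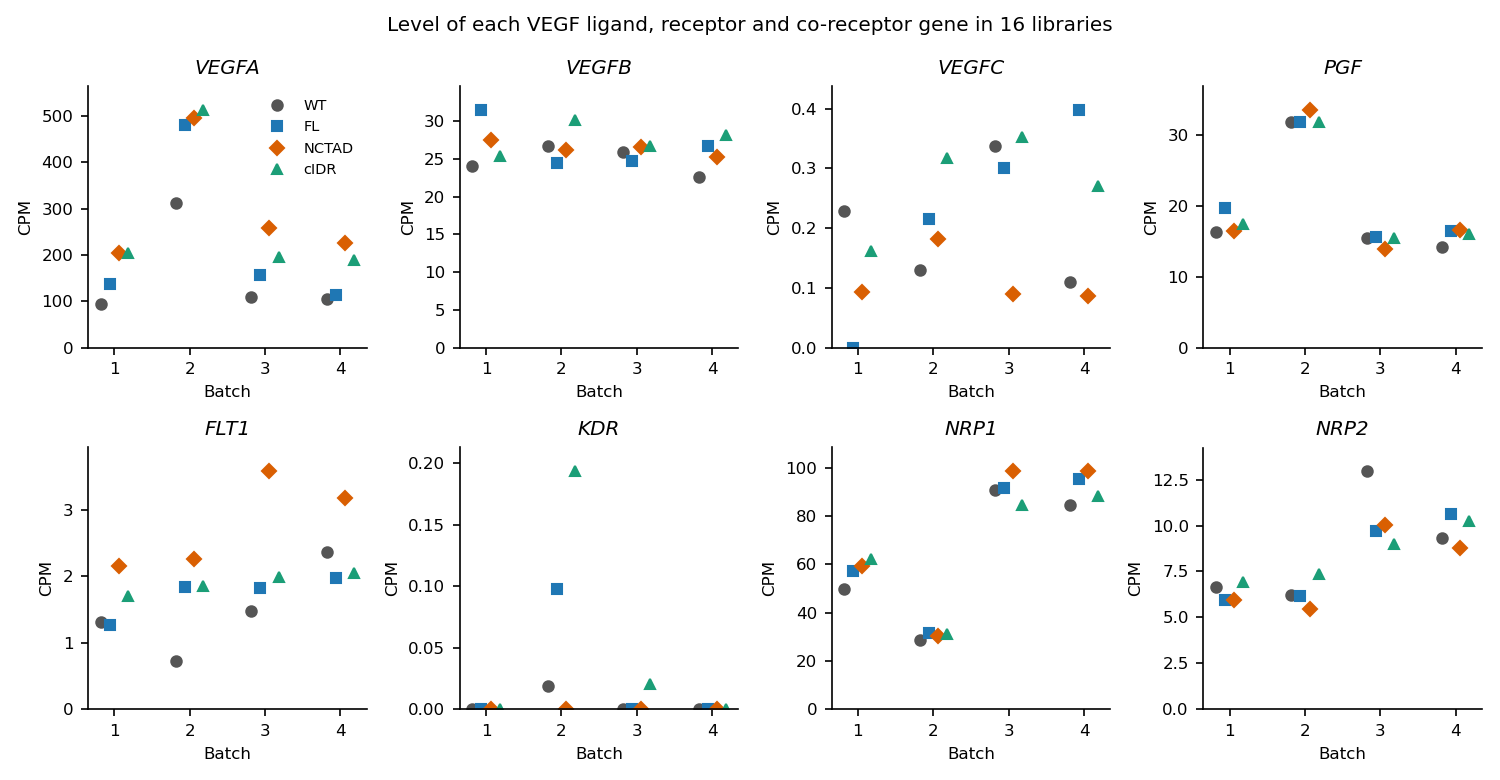
CPM of each of the 8 genes (vertical axis, from 0) by batch (horizontal axis), with 1 point for each of the 4 groups. VEGFA (312 to 513 CPM) and PGF (31.8 to 33.5) are raised in all 4 libraries of batch 2, NRP1 (28.7 to 31.6) is lowered in all 4, and FLT1 is highest in NCTAD in each batch.

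For VEGFA, VEGFC, PGF, NRP1 and NRP2 batch accounted for more of the variance than group did. Of the variance of log2 CPM over the 16 libraries, batch accounted for 98.2% in NRP1, 96.8% in PGF, 84.3% in NRP2 and 69.4% in VEGFA. Group accounted for 0.864%, 1.01%, 4.61% and 27.2% of it in these genes. In the sparsely counted VEGFC batch accounted for 24.3% and group for 19.4%. FLT1 was the reverse, with 50.04% for group and 25.8% for batch. VEGFB varied least, over a range of 0.48 on the log2 scale, with 7.45% for batch and 23.7% for group.

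Batch 2 differed from the other 3 batches in 4 of the 7 tested genes, a comparison in which 53.9% of all tested genes were called, 27.7% higher and 26.1% lower. That share of the VEGF genes is near the share of all genes, so the count by itself says nothing particular about them. The ligands VEGFA and PGF were higher in batch 2 and the co-receptors NRP1 and NRP2 lower. VEGFA in batch 2 exceeded the mean of the other batches 3.06-fold among WT libraries, 3.52-fold with FL, 2.16-fold with NCTAD and 2.61-fold with cIDR. In the model with group and batch its difference was 1.50 ± 0.08 (2.82-fold, edgeR adjusted p 3.15e-09), larger than that of any construct from WT. All 4 batch 2 libraries stood above the other 12.

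PGF was at 31.8, 31.8, 33.5 and 31.8 CPM in the WT, FL, NCTAD and cIDR libraries of batch 2, against 13.97 to 19.7 CPM in the other 12 libraries. The groups agreed within batch 2 to within 0.86 CPM (SD), and batch 2 did not overlap the rest. The difference was 1.01 ± 0.05 (2.01-fold, edgeR adjusted p 9.41e-10). VEGFB and VEGFC were not called, at 0.036 ± 0.067 (edgeR adjusted p 0.678) and 0.16 ± 0.49 (adjusted p 0.802), and both changed sign when 1 library was left out, to as low as −0.018 for VEGFB without the cIDR library of batch 2 and to −0.084 for VEGFC without the NCTAD library of batch 2.

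NRP1 was at 28.7, 31.6, 30.2 and 31.1 CPM in the WT, FL, NCTAD and cIDR libraries of batch 2. The other libraries lay at 49.8 to 62.3 CPM in batch 1, 84.5 to 98.5 in batch 3 and 84.8 to 98.6 in batch 4. Batch 2 differed by −1.36 ± 0.05 (0.389-fold, edgeR adjusted p 6.31e-11). Batch 1 also stood below batches 3 and 4, so the batches formed 3 levels of NRP1. NRP2 was at a mean of 6.29 ± 0.79 CPM in batch 2 and 6.35 ± 0.51 in batch 1, against 10.4 ± 1.74 and 9.75 ± 0.85 in batches 3 and 4 (SD, n = 4). Its batch 2 difference was −0.46 ± 0.09 (edgeR adjusted p 0.000738), and its batch 1 difference was nearly the same at −0.44 ± 0.09 (adjusted p 0.00365). FLT1 was at −0.32 ± 0.18 in batch 2 (edgeR adjusted p 0.157), not called.

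The same 4 genes were called when each other batch was set against the remaining 3, where 24.7%, 16% and 13.4% of all tested genes were called for batches 1, 3 and 4. VEGFA was at −0.57, −0.33 and −0.59 in batches 1, 3 and 4, and PGF at −0.18, −0.46 and −0.37. NRP1 was at −0.15, 0.75 and 0.76. The 4 contrasts are not independent, since each batch is part of the baseline of the others.

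**Figure D4:**
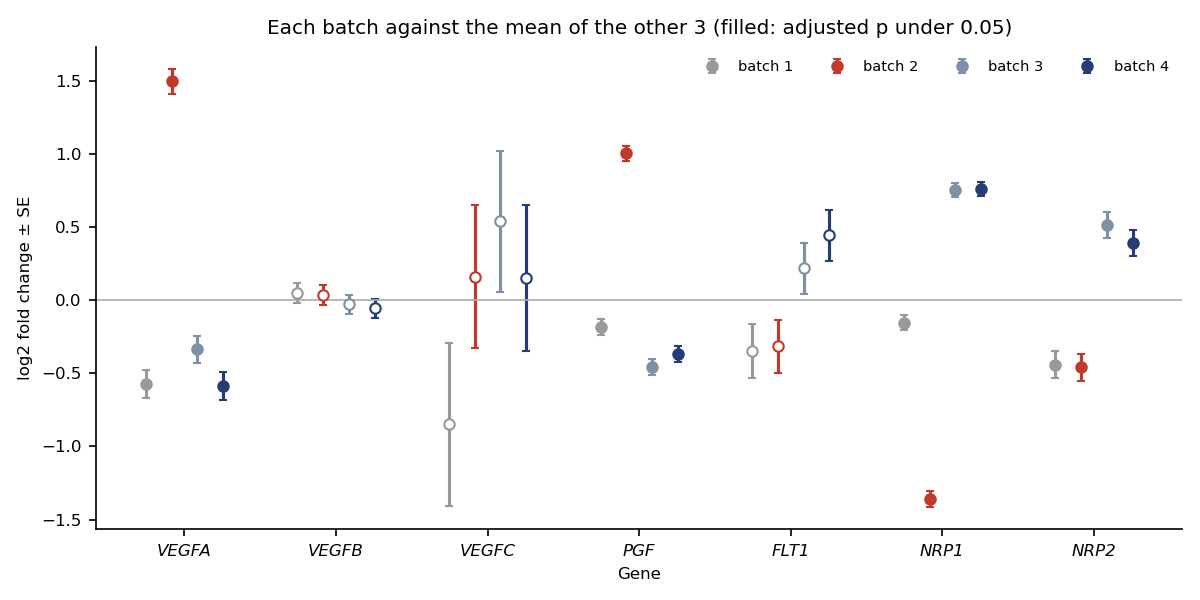
Log2 fold change ± SE of each batch against the mean of the other 3 (vertical axis) for the 7 tested genes, with filled points where the edgeR adjusted p was under 0.05. Batch 2 is at 1.50 for VEGFA, 1.01 for PGF and −1.36 for NRP1, while VEGFB stays between −0.056 and 0.050 in all 4 batches.

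Per length, the balance of ligands and receptors differed between batches. The 4 ligands summed to 327 ± 48.1 TPM in batch 2 and to 128 ± 23.1, 145 ± 31.8 and 140 ± 31.8 TPM in batches 1, 3 and 4 (SD, n = 4). VEGFA made up 79.2 ± 3.53% of the ligand sum in batch 2 and 60.6 ± 8.88%, 65.2 ± 8.18% and 62.8 ± 8.29% elsewhere. The receptors and co-receptors summed to 14.1 ± 1.07 TPM in batch 2 and to 20.9 ± 2.45, 37.8 ± 4.27 and 37.9 ± 4.82 TPM in batches 1, 3 and 4. NRP1 was 78.8% or more of that sum in every library. The TPM ratio of VEGFA to NRP1 was 22.0 ± 3.27 in batch 2, against 4.19 ± 1.02, 2.87 ± 0.94 and 2.61 ± 0.88.

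Whether the constructs acted differently in batch 2 was tested as the mean construct difference from WT in batch 2 minus that in the other batches. Batch 2 enters it with 1 library of each group, so its WT baseline is the single WT library of that batch, assumed to vary like the others. This called 0 of the 7 genes, with 0.0256% of all tested genes called. VEGFA was at −0.18 ± 0.16 (edgeR adjusted p 1). FLT1 was at 1.12 ± 0.35 (edgeR adjusted p 1), with the WT library of batch 2 as its lowest value. EPAS1 itself was called there, at −1.92 ± 0.20 (edgeR adjusted p 0.0061): its WT level was highest and 2 of its 3 transfected levels lowest in batch 2. NDRG1, a stress-response gene of the hypoxia list, was also called (−1.87 ± 0.20, edgeR adjusted p 0.0061).

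The genes of the 8 moved together in different ways between and within batches. Over the 16 libraries, which share 4 batches, VEGFA and PGF had r of 0.80, PGF and NRP1 −0.93, VEGFA and NRP1 −0.68 and NRP1 and NRP2 0.80 on log2 CPM. After the batch mean was subtracted these were 0.084, 0.22, 0.65 and 0.081. The pairs with a negative r, PGF with NRP1 and VEGFA with NRP1, thus turned positive. For VEGFA and FLT1 r rose from 0.11 to 0.74. These are descriptions over libraries that share batches and groups.

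Among 12374 genes with a symbol and a mean log2 CPM of at least 1, those most like VEGFA over the 16 libraries were SFXN3 (r 0.970), STC1 (0.967) and TH (0.963), the gene of tyrosine hydroxylase. With the batch mean subtracted they were IGF2 (0.966), RTL1 (0.942) and LOXL2 (0.938). FLT1 was most like ETS2 (0.862), ACER3 (0.801) and NPC1 (0.789), and PCSK6 (0.858), PAK6 (0.849) and SOX7 (0.826) within batches. Among the genes most like PGF were PROCR and FBLL1 (each 0.987), and NRP1 was most like CLCC1 (0.993), HYOU1 (0.992) and PLXNA2 (0.989), a plexin that pairs with neuropilins. NRP2 was most like SYN2 (0.954), NTRK3 (0.933) and WDR44 (0.928). VEGFB was most like TRMT10C (0.869), PTTG1 (0.830) and DRAP1 (0.826), and the sparsely counted VEGFC most like UMAD1 (0.909). Within batches PGF was most like PIN4 (0.885), NRP1 like NUP210 (0.890) and NRP2 like SLC25A30 (0.795). All these are the best matches among 12374 genes, and even the sparsely counted VEGFC reached 0.909, so a high r says little by itself.

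The wider pathway was read from a list of 45 VEGF signalling genes beyond the 8, of which 42 were tested, from other ligands and receptors of the family (VEGFD, FLT4) to kinases and their regulators. None was called in any of the 6 group comparisons by either fit, where at most 0.0256% (group alone) and 0.486% (block) of all tested genes were called, so a count of 0 is near the background. The list's median against WT was between −0.0083 and 0.024 with the block, beside 0.0079 to 0.016 over all tested genes. In batch 2, 15 were higher and 14 lower, where 27.7% of all tested genes were higher and 26.1% lower. The list's median was 0.061 beside 0.035 over all. DUSP6, a phosphatase induced by and acting on ERK, rose by 1.32 ± 0.06 (edgeR adjusted p 1.67e-10). SPRY2, a feedback inhibitor of receptor tyrosine kinases, rose by 0.50 ± 0.04 (edgeR adjusted p 2.49e-07) and SHC1, an adaptor, by 0.47 ± 0.04 (adjusted p 4.31e-07). MAPKAPK2, a kinase downstream of p38, was lower (−0.39 ± 0.05, edgeR adjusted p 4.01e-06).

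Semaphorins and plexins, which share the neuropilins, were covered by 12 genes, all tested. None was called in a group comparison by either fit, near the background of at most 0.486% of all tested genes. In batch 2, 6 were higher and 3 lower, beside 27.7% and 26.1% of all tested genes, with a median of 0.32 beside 0.035 over all. The semaphorin receptors PLXNA2 (−1.56 ± 0.08, edgeR adjusted p 5.47e-10) and PLXNA4 (−1.83 ± 0.12, adjusted p 1.92e-08) were lower, as NRP1 was. PLXND1 was higher by 0.64 ± 0.04 and SEMA3D, a class 3 semaphorin, by 1.19 ± 0.12 (edgeR adjusted p 2.49e-08 and 1.31e-06). PLXNA2 was at a mean of 43.1, 21.1, 76.1 and 72.4 CPM in batches 1 to 4, the same order of batches as NRP1 except between batches 3 and 4.

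Of 28 other angiogenic ligands and receptors 19 were tested. With group alone 0 were called in any comparison. With the block ADM, the vasodilator peptide adrenomedullin and also a member of the hypoxia list below, rose in NCTAD (1.34 ± 0.22, edgeR adjusted p 0.00862) and in cIDR (1.47 ± 0.22, adjusted p 0.00417). ENG, a TGF-β co-receptor, rose in NCTAD (0.70 ± 0.14, edgeR adjusted p 0.0404) and ANGPTL4, a secreted lipase inhibitor, in cIDR (1.96 ± 0.32, adjusted p 0.0102). Of all tested genes the block called 0.456% in NCTAD and 0.486% in cIDR. With the block the list's medians against WT were 0.095 (FL), 0.096 (NCTAD) and 0.082 (cIDR). In batch 2, 11 of the 19 were higher and 3 lower, beside 27.7% and 26.1% of all tested genes, with a median of 0.64 beside 0.035. ENG (1.32 ± 0.10), PDGFRB (0.73 ± 0.05) and FGFR1 (0.57 ± 0.04) were higher there and EDNRA, an endothelin receptor, was lower (−1.77 ± 0.08), with edgeR adjusted p from 3.24e-10 to 9.40e-08.

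For comparison, 20 hypoxia-responsive genes were read in the same fits. With group alone 0 were called in any group comparison. With the block 1 was called in FL (BHLHE40), 5 in NCTAD and 8 in cIDR against WT, all higher, with medians of 0.099, 0.13 and 0.33. Over all tested genes the block called 0.102%, 0.456% and 0.486% in these comparisons. BHLHE40, a transcriptional repressor, rose by 0.78 ± 0.08, 0.93 ± 0.08 and 1.11 ± 0.08 in FL, NCTAD and cIDR (edgeR adjusted p 0.000308, 5.92e-05 and 5.79e-06). NDRG1 rose by 2.03 ± 0.33 in NCTAD and 2.49 ± 0.34 in cIDR (edgeR adjusted p 0.0104 and 0.00184). KDM3A, a histone demethylase, rose by 0.43 ± 0.05 in cIDR against WT and by 0.39 ± 0.05 against FL (edgeR adjusted p 0.00106 and 0.0281). In batch 2, 18 of the 20 were higher and 0 lower, beside 27.7% and 26.1% of all tested genes, with a median of 0.77 beside 0.035 over all tested genes. PDK1, a kinase that shuts pyruvate dehydrogenase, rose by 2.81 ± 0.08 and BNIP3, a mitophagy receptor, by 1.73 ± 0.06 (edgeR adjusted p 4.65e-12 and 1.23e-11). P4HA2 rose by 1.55 ± 0.05 and FAM162A by 1.36 ± 0.06 (edgeR adjusted p 4.59e-12 and 9.49e-11). In batches 1, 3 and 4 the list had 10, 10 and 9 genes lower and 0 higher, where 24.7%, 16% and 13.4% of all tested genes were called in either direction. VEGFA was thus higher in batch 2 together with this list, although the labels give all 16 libraries the same oxygen. The part of the hypoxia-responsive genes in the VEGFA result was not tested.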

How the data were processed

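RNA-seq of 16 libraries of SK-N-BE(2) cells was analysed, in 4 groups of 4. The authors deposited estimated counts per gene, made with Salmon per the submitters' processing notes, which also name fastp, STAR, featureCounts and GRCh38 without versions. The deposited TPM values (transcripts per 1 M, scaled for length and depth) were used only to compare genes and in alternatives. The annotation release behind the tables is not given in the sources used here. GENCODE 29 gave positions. Every sample column of both tables was used.

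Values that were not whole (15.5%) were rounded to the nearest count. Genes were filtered with filterByExpr by group (19530 of 63187 kept), scaled by TMM and tested with edgeR 4.0.16 (R 4.3.3) quasi-likelihood in 1 model over the 16 libraries, at a Benjamini-Hochberg adjusted p under 0.05 over all tested genes. The main model had group only (biological coefficient of variation 0.245), since the labels give a batch but state no model, and the fit with the batch as a block is given beside it. Batch contrasts used group and batch (0.108), and the construct effect in batch 2 an interaction model (0.124). An SE was obtained as the log2 fold change over the root of its F statistic. A prior count of 2 entered log2 CPM. The procedure was tested on data simulated with the spread of the block fit and, apart from planted changes, without batch differences. It therefore does not show how the group-only fit behaves with batches that differ as these do.

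Labels make the replicate number a batch, so the number pairs libraries. Deviations from group means correlated with a mean r of 0.308 within batches (0.0674 to 0.712) and −0.0945 between. No 2 libraries of a group were copies, with a chi-square per degree of freedom of at least 6.89.

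Named genes were the 8 members, EPAS1, up to 4 called genes with the smallest adjusted p per list and comparison, and the 3 genes most correlated with each tested member. VEGFD, FLT4 and the cell type markers named fall outside this rule and were chosen after their values were seen. Members, lists, markers and the singling out of batch 2 were chosen with earlier results of these data known, so the batch 2 and hypoxia list values are no independent evidence. Alternatives were the batch block, median-of-ratios size factors, testing without the low-count filter or with a minimum of 10 counts in each library, DESeq2 1.42.0, limma 3.58.1 on log2(TPM + 1) and log2(TPM + 0.1), only the 8 libraries of the 2 groups compared, no group term, batch 2 left out, and each library left out. Leaving out batch 1, 3 or 4, and single libraries with the block, were added after seeing the data. Promoters came from RefSeq. Python 3.11.15 with matplotlib 3.10.9 made the figures.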

Additional observations from a re-analysis of the deposited data

Results flagged for a closer look

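In 31 of the 32 combinations of gene and group (KDR in NCTAD, at 0 in all 4 libraries, has no range), the highest or lowest of the 4 libraries was compared with the rest by its gap over the range, against Dixon's critical value for 4 samples. Chance alone puts about 1 in 20 such groups past it. In 10 combinations the value was passed, and in all 10 the library was the highest and belonged to batch 2. VEGFA stood apart at 312 CPM in WT, 479 in FL and 513 in cIDR. PGF stood apart at 31.8 CPM in WT, 33.5 in NCTAD and 31.8 in cIDR. KDR stood apart at 0.0186 CPM in WT, which is 1 count, 0.0979 in FL and 0.194 in cIDR, with the other 3 libraries of each group at 0 or 1 count. In WT and FL those were all at 0, so any count would have passed the value there and these 2 combinations carry no information. VEGFC stood apart at 0.182 CPM in NCTAD, which is 9 counts against 4 or 5. The libraries of batch 2 share that batch, so these are not independent events.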

How the results depend on the processing

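Of the comparisons of single genes, the batch 2 differences of VEGFA (1.37 to 1.61), PGF (0.95 to 1.07), NRP1 (−1.58 to −1.18) and NRP2 (−0.68 to −0.34) kept direction and call under every alternative run. With the block, VEGFA kept its calls when any 1 of the 8 libraries of the 2 groups compared was left out, at 0.98 to 1.17 in NCTAD and 0.83 to 0.93 in cIDR (edgeR adjusted p up to 0.00557 and 0.0144). Under at least 1 alternative to the group-only fit the sign changed for VEGFA in FL against WT, cIDR against FL and cIDR against NCTAD. The same held for FLT1 in FL against WT and cIDR against FL. With the block and 1 library left out, VEGFA kept its sign in those comparisons. It was at 0.34 to 0.57 in FL against WT, 0.31 to 0.54 in cIDR against FL and −0.27 to −0.090 in cIDR against NCTAD. VEGFB, VEGFC, PGF, NRP1 and NRP2 had 30 group differences, of which 0 were called under any alternative (smallest adjusted p 0.512) and 22 changed sign under at least 1. The median of all genes moved by at most 0.0125 with other size factors.

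With the replicate block the counts of called genes were 20 (FL), 89 (NCTAD) and 95 (cIDR) against WT, 6 for cIDR against FL, 1 for cIDR against NCTAD and 83 for any group difference. Leaving out batch 2 as well gave 16, 62 and 46 against WT, 5 for NCTAD and 10 for cIDR against FL and 51 for any difference, and FLT1 in FL against WT became −0.048. At least 10 counts in every library gave 1, 3 and 1 against WT and 1 for any difference. DESeq2 gave 11, 17 and 8 against WT, 2 for NCTAD against FL, 3 for cIDR against NCTAD and 22 for any difference. TPM gave 1 (pseudocount 1) and 2 (0.1) for NCTAD against WT, and −0.0023 for FLT1 in cIDR against FL with 1. The 8 libraries alone gave 1 for cIDR against WT. The construct effect in batch 2 had 19 calls without the low-count filter, 3 at 10 counts, 10 by DESeq2 and 1 and 2 with TPM, where NRP1 was at 0.043 and 0.050. VEGFC in batch 2 was −0.12 without batch 1. The cause of these changes was not tested.

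Leaving out single libraries with group alone moved VEGFA in FL against WT from −0.18 (without FL replicate 2) to 1.12 (without WT replicate 2), in cIDR against FL from −0.17 (without cIDR replicate 2) to 1.02 (without FL replicate 2), and in cIDR against NCTAD from −0.59 (without cIDR replicate 2) to 0.26 (without NCTAD replicate 2). NCTAD against WT called 2 to 4 genes and any difference 2 to 4. With the block the counts ranged from 10 (without WT replicate 1) to 23 in FL, from 43 (without WT replicate 1) to 83 in NCTAD and from 49 (without WT replicate 1) to 72 in cIDR against WT. They ranged from 0 to 5 (without NCTAD replicate 2) for NCTAD against FL, from 0 (without FL replicate 3) to 8 for cIDR against FL, from 0 (without NCTAD replicate 1) to 2 (without cIDR replicate 2) for cIDR against NCTAD, and from 43 (without WT replicate 1) to 104 for any difference. In batch 2, VEGFB ranged from −0.018 (without cIDR replicate 2) to 0.095 and VEGFC from −0.084 (without NCTAD replicate 2) to 0.43. The construct effect in batch 2 had 2 (without WT replicate 1) to 5 calls, and NRP1 ranged from −0.067 to 0.023 (without WT replicate 1). It could not be fitted without WT replicate 2.

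Depth limits KDR and VEGFC, at 18 and 157 counts over all libraries, and FLT1, at 39 to 198 counts per library.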

Other observations

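VEGFD, the remaining secreted ligand of the family and a partner of FLT4 and KDR, is named here after its values were seen. Its mean level was 1.04, 1.77, 1.06 and 0.955 CPM in batches 1 to 4. Batch 2 was higher by 0.82 ± 0.16 (1.76-fold, edgeR adjusted p 0.000686), as for VEGFA and PGF. FLT4, the receptor of VEGFC and VEGFD, was at 0.700, 0.771, 0.871 and 0.955 CPM and was not called in any comparison.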
